A study of Homo sapiens with 6 samples.

Results

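Regions that carried 5-methylcytosine (5mC) peaks at both glucose levels, a 5-hydroxymethylcytosine (5hmC) peak in normal glucose and no 5hmC peak in high glucose are described here and called normal-only regions. They were found by pooling the deposited peaks on chromosomes 1 to 22 and X, joining peaks that overlapped by at least 1 bp into union regions, and noting which of the 4 peak lists contributed. There were 6553 normal-only regions among 319166 union regions, and among the 68672 union regions with 5mC peaks in both lists they made up 9.54% (Wilson 95% interval 9.32 to 9.76%). They were chosen by the presence of a 5hmC peak in 1 list and its absence from the other, so every difference in 5hmC between the glucose levels at these regions is a description and supports nothing.

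The cells were A2058, an established human melanoma cell line, and every library came from cells over-expressing wild-type TET2 (TET2WT). The groups were cells grown in high glucose and cells grown in normal glucose, in each case for 7 days before collection. At each glucose level 1 5hmC library, 1 5mC library and 1 input library were made from genomic DNA, and the 4 antibody-enriched libraries were analysed through their peak lists, on genome build hg19. With 1 cell line and 1 library per mark and glucose level, no comparison has a replicate check and no p-value is given across regions. Intervals cover counting only, and sequenced reads without identifiers for single molecules may be copies of one another.

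TET2 is a dioxygenase that oxidises 5mC to 5hmC, an intermediate on the way back to unmodified cytosine that can also persist in DNA. Because 5hmC is made from 5mC, 5mC must be present on at least some DNA copies for TET2 to act there, and loss of 5hmC is a known feature of melanoma. In MeDIP-seq and hMeDIP-seq an antibody against 5mC or 5hmC pulls down fragments that carry the modified base, so a peak marks enriched DNA and does not resolve single cytosines or show that both marks sit on the same molecule. In such bulk libraries, fewer cells carrying 5hmC at a region and less 5hmC per cell cannot be told apart.

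Of the other regions with 5mC peaks in both lists, 2570 had a 5hmC peak in high glucose and none in normal glucose (high-only regions, 3.74%, 3.60 to 3.89%). Another 23635 had 5hmC peaks at both levels (34.4%), and 35914 had none (52.3%). Normal-only regions were thus 2.55 times as many as high-only regions. The normal-glucose 5hmC list was also the longer of the pair, with 191314 peaks in high and 209999 in normal glucose on these chromosomes. With the normal-glucose list trimmed to its strongest peaks, as many as the high-glucose list held, the ratio was 1.54.

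Normal-only regions were narrower than regions with 5hmC at both levels, wider than regions without 5hmC and close in width to high-only regions. Their median width was 930 bp (quartiles 680 and 1317 bp, range 339 to 10167 bp), and together they covered 7.27 Mb. The median width was 903.5 bp in high-only regions, 1454 bp in regions with 5hmC at both levels and 586 bp in regions without 5hmC. In 5982 of the 6553, or 91.3%, each of the 3 contributing lists gave a single peak. This was not particular to them. Among regions with at most 1 peak per list, normal-only regions made up 9.95%, near the 9.54% over all. Their ratio to high-only regions was 2.49 there, beside 2.55. They held 6823 of the normal-glucose 5hmC peaks, or 3.25% of that list, and 6.76% and 7.36% of the high- and normal-glucose 5mC peaks.

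The 5hmC peaks that defined normal-only regions were modest. Each peak carries the authors' own fold enrichment over background and -log10 p-value, which describe the peak within its own list. Where values of 2 lists stand side by side below, the lists may differ in depth, and the values are given as a description. In the normal-glucose list the strongest 5hmC peak of a normal-only region had a median -log10 p of 6.15 (quartiles 4.68 and 8.05), against 12.4 in regions with 5hmC at both levels. Their median fold enrichments were 3.60 and 5.22. A -log10 p of 10 or more was reached by 761 normal-only regions, or 11.6%, and by 62.9% of the regions with 5hmC at both levels. Only 20 normal-only regions, or 0.305%, reached 20, and 465, or 7.10%, had a -log10 q under 2.

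Peaks of like size were found elsewhere where 5hmC was listed at a single level. The 53967 union regions made of normal-glucose 5hmC alone, without 5mC, had a median -log10 p of 6.36 and a median fold of 3.69. In high-only regions the high-glucose 5hmC peak had a median -log10 p of 6.36 and a median fold of 3.51 within its own list. Counted at the same minimum in their own lists, normal-only and high-only regions numbered 4707 and 1922 at a minimum -log10 p of 5, 761 and 365 at 10, 103 and 55 at 15, and 20 and 11 at 20. The ratio of the counts was 2.45, 2.08, 1.87 and 1.82 at these 4 minimums. The counts at 15 and 20 were small and each set held the next, so a trend with peak strength was not tested.

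**Figure D1:**
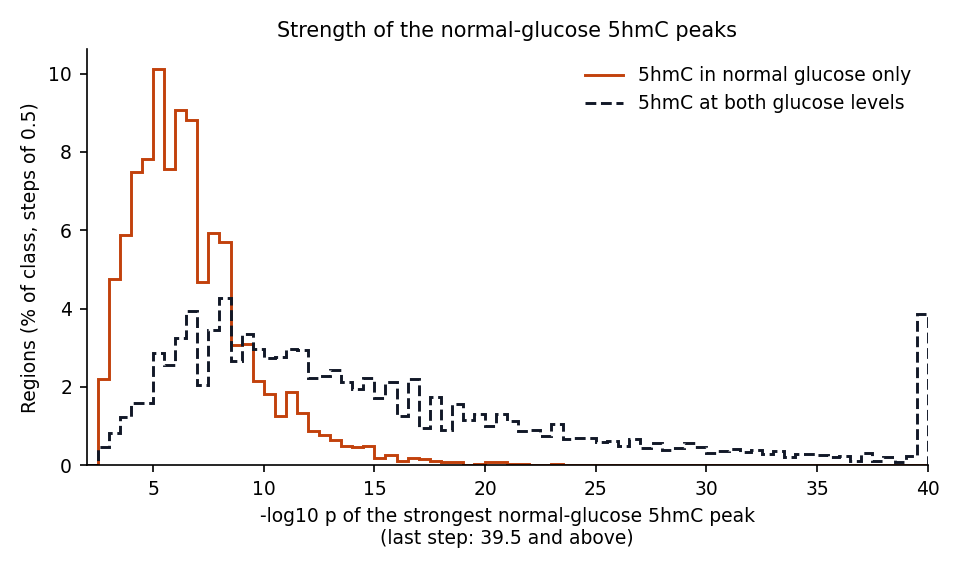
Distribution of the authors' -log10 p of the strongest normal-glucose 5hmC peak (horizontal axis) as percent of regions per step of 0.5 (vertical axis), for the 6553 normal-only regions (solid line) and the 23635 regions with 5hmC at both levels (dashed line); the last step holds all higher values. The medians are 6.15 and 12.4, and 11.6% and 62.9% of regions lie at 10 or above.

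The fold and p columns together allowed the number of fragments at a summit to be worked out. Every peak of the 4 lists could be written with t fragments, t being whole, over an expected background of L fragments, the fold being (t + 1)/(L + 1) and p the Poisson chance of exceeding t. For 6 peaks of the high-glucose and 63 of the normal-glucose 5mC list, 2 values of t met these conditions. At the summit of the normal-glucose 5hmC peak, normal-only regions had a median of 15 fragments (quartiles 13 and 18, range 8 to 47), against 24 in regions with 5hmC at both levels. For 5hmC, the lowest background was 3.03 fragments in high and 2.64 in normal glucose, or 1.15 times as high in high glucose. The 5mC lists had lower backgrounds, the lowest being 0.737 fragments in high and 0.615 in normal glucose, or 1.20 times as high in high glucose. A 5mC summit in normal-only regions held a median of 17 fragments in high and 14 in normal glucose. Sequencing depth itself was not measured here. At such fragment numbers a region just under the threshold of a list is not detectable as enriched, and its absence from the list does not show that the mark was absent.

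Some normal-only regions lay at the very edge of the rule. The closest was chr15:78875744-78876241, which touched a high-glucose 5hmC peak with 0 bp between them, and whose own 5hmC peak had a -log10 p of 10.9. Next came chr22:18563026-18563897, with 1 bp between them, and chr10:71097387-71098207, with 2 bp. Just outside were chr2:97217408-97218929 and chr12:115203987-115205363, which a high-glucose 5hmC peak joined by an overlap of 2 bp each, and chr17:79057427-79061889, joined by 7 bp. In all, 6 normal-only regions lay within 10 bp of a high-glucose 5hmC peak, and 3 regions of all 4 lists were joined to one by 10 bp or less.

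Most normal-only regions had high-glucose 5hmC nearby. The median distance to the nearest high-glucose 5hmC peak was 1925 bp, with 5% of regions within 287 bp and 5% beyond 14994 bp. Within 500 bp there was such a peak for 847 regions (12.9%), within 1000 bp for 1953 (29.8%), within 2000 bp for 51.1% and within 10000 bp for 90.0%. High-only regions showed much the same toward the normal-glucose list, with a median of 1672 bp and 33.1% within 1000 bp. Regions without 5hmC lay farther from a high-glucose 5hmC peak, at a median of 3568 bp.

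**Figure D2:**
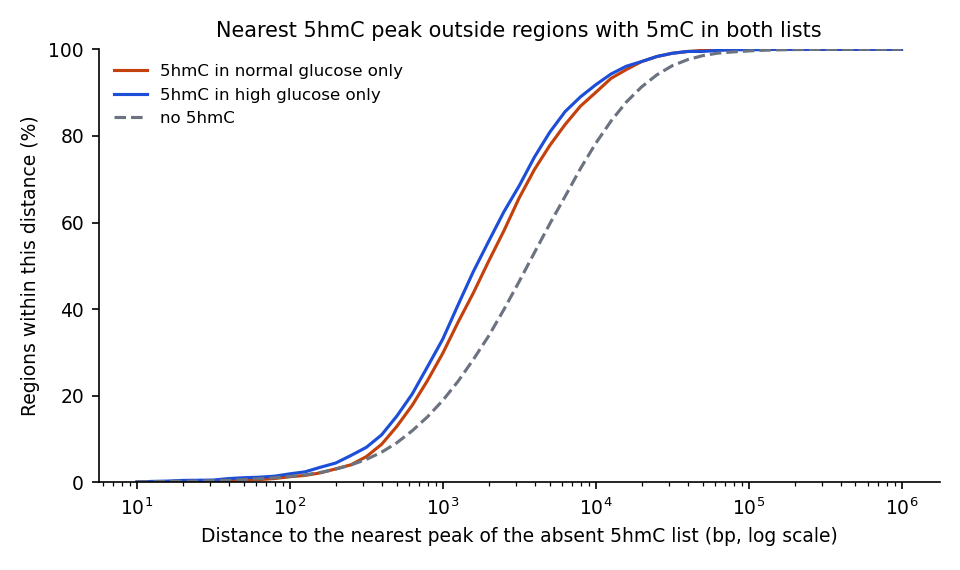
Percent of regions (vertical axis) with a 5hmC peak of the absent list within a given distance (horizontal axis, bp, log scale), for normal-only regions to the high-glucose list, high-only regions to the normal-glucose list, and regions without 5hmC to the high-glucose list (dashed). The medians are 1925, 1672 and 3568 bp.

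Around normal-only regions the high-glucose list held fewer 5hmC peaks than the normal-glucose list. Within 2 kb on both sides there were 4479 high-glucose and 5311 normal-glucose 5hmC peaks, a ratio of 0.843. From 2 to 10 kb the ratio was 0.896 and from 10 to 50 kb 0.905, beside 0.911 for the whole lists. The same ratio around high-only regions was 0.804, 0.818 and 0.835 over those distances, and around regions with 5hmC at both levels 0.742, 0.793 and 0.853. By peak number, the ratio around normal-only regions was thus the nearest to 1 of these classes. By the share of regions with a listed peak at a fixed distance from the 5hmC summit the order was the other way against high-only regions: at 2 kb the ratio was 0.753 for normal-only and 0.821 for high-only regions, at 5 kb 0.796 and 0.907, and at 10 kb 0.800 and 0.843. The order of the classes therefore depended on how the flanks were counted. For 5mC the ratio of high- to normal-glucose peaks around normal-only regions was 1.07 within 2 kb and 1.06 from 2 to 10 kb, beside 1.09 for the whole lists.

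**Figure D3:**
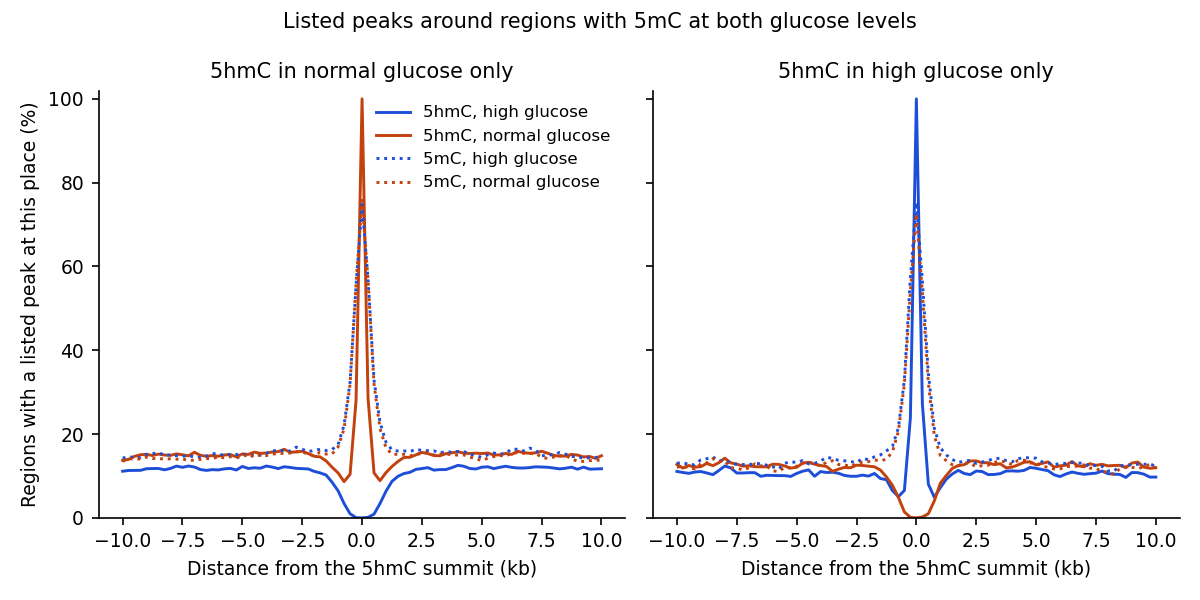
Percent of regions with a listed peak (vertical axis) at each distance from the 5hmC summit (horizontal axis, kb), in normal-only regions (left) and high-only regions (right), for 5hmC (solid) and 5mC (dotted) in high and normal glucose. The rule sets the 5hmC values at the centre; at 5 kb from the summit of normal-only regions, 12.2% lay in a high-glucose and 15.3% in a normal-glucose 5hmC peak, against 11.2% and 12.4% for high-only regions.

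Within normal-only regions the 5hmC summit lay mostly inside the 5mC peaks, while the whole 5hmC peak did so in a minority of regions. The 5hmC summit was a median of 188 bp from the high-glucose 5mC summit and 190 bp from the normal-glucose one, and the 2 5mC summits were a median of 51 bp apart. The 5hmC summit lay inside the high-glucose 5mC peak in 73.9% of regions (72.8 to 74.9%) and inside the normal-glucose one in 74.9% (73.8 to 75.9%). The whole 5hmC peak was contained in the high-glucose 5mC peak in 35.7% (34.5 to 36.8%) and in the normal-glucose one in 36.2% (35.0 to 37.4%). In regions with 5hmC at both levels the normal-glucose 5hmC summit was 265 and 264 bp from the high- and normal-glucose 5mC summits, and lay inside the 5mC peaks in 68.8% and 68.1%. The 5hmC peak of normal-only regions was narrower, with a median width of 415 bp against 796 bp. In high-only regions the distances were 193.5 and 193 bp, within 6 bp of those in normal-only regions.

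The 5mC peaks of normal-only regions were of middling strength within their lists. In the high-glucose list their median -log10 p was 15.6 (95% interval of the median 15.0 to 15.7) and in the normal-glucose list 14.3 (14.1 to 14.7). High-only regions had medians of 15.6 in high and 13.6 in normal glucose, regions with 5hmC at both levels 20.5 and 18.4, and regions without 5hmC 11.8 and 10.4. The median fold in normal-only regions was 8.63 for high and 8.62 for normal glucose, and the median width was 649 and 648 bp. By 5mC strength, normal-only regions thus stood near high-only regions, and between the regions with 5hmC at both levels and those without it.

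The share of normal-only regions was higher where 5mC was stronger. Over 5 classes of equal size, from weak to strong 5mC, it was 8.16, 8.41, 9.72, 10.7 and 10.8%, with intervals of 7.72 to 8.63% in the weakest and 10.3 to 11.3% in the strongest class. The share of regions with 5hmC at both levels ran much further over the same classes, with 3015 of 13735 regions in the weakest and 7958 of 13734, or 57.9%, in the strongest. Regions without 5hmC fell from 66.6 to 27.3%, so the rise was not particular to normal-only regions. The median width of the normal-glucose 5mC peak also rose, from 391 bp in the weakest to 1195 bp in the strongest class. A part of width in these shares was not tested. Normal-only exceeded high-only regions in each class, by ratios between 2.38 and 2.71.

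That 5mC was listed at both levels does not mean that its strength was equal. A rank within each 5mC list was used to set the lists side by side, because folds and p-values of lists that may differ in depth are not on a common scale. By -log10 p, 1375 normal-only regions (21.0%) ranked at least 10 percentile points higher in high glucose, beside 23.6% of all regions with 5mC in both lists, and 1608 (24.5%) ranked at least 10 points lower, beside 23.5%. Both shares were near those of all regions. Any higher rank in high glucose was seen in 47.3% of normal-only regions (46.1 to 48.5%) and in 52.8% of high-only regions (50.9 to 54.8%). Ranked by fold the shares were 45.9% and 55.9%.

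This small lean depended on the measure. Ranked by fragments at the summit, 50.6% of normal-only regions (49.3 to 51.8%) and 46.9% of high-only regions (45.0 to 48.9%) stood higher in high glucose, the opposite order. The summed summit fragments, high over normal glucose, had a ratio of 1.17 in normal-only regions, 1.15 in high-only regions, 1.17 in regions with 5hmC at both levels and 1.16 in those without 5hmC. The summed expected background at the same summits had ratios of 1.34, 1.06, 1.22 and 1.20 in the same 4 classes. The classes thus differed more in the background that the caller expected than in the 5mC fragments observed.

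The 5mC background moved with the class in more detail. Taken over the lowest background of its list, the median at the 5mC summits of normal-only regions was 1.36 in high and 1.20 in normal glucose. In high-only regions it was 1.24 in high and 1.41 in normal glucose, and in regions with 5hmC at both levels 1.36 and 1.38. A background at least 1.25 times higher in high than in normal glucose was found at 1785 normal-only regions (27.2%), beside 16.5% of all regions with 5mC in both lists. A background at least 1.25 times lower was found at 682 (10.4%), beside 15.2%. High-only regions had 8.52% and 29.2%, a mirror image.

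The share of normal-only regions followed that background shift. Where the log2 ratio of background, high over normal glucose, was under -0.5, 6.42% of regions were normal-only and 7.96% high-only. Where it was over 0.5, 17.2% were normal-only and 1.61% high-only, a ratio of 10.7. Where it lay within 0.1 of 0, 7.99% were normal-only and 3.19% high-only, a ratio of 2.50. The last ratio lay near the 2.55 over all regions, with smaller shares of both classes. In the class with the lowest relative background in high glucose, high-only regions were the more common, at a ratio of 0.806. The background at the absent high-glucose peaks is not known, so its part in these ratios was not tested.

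**Figure D4:**
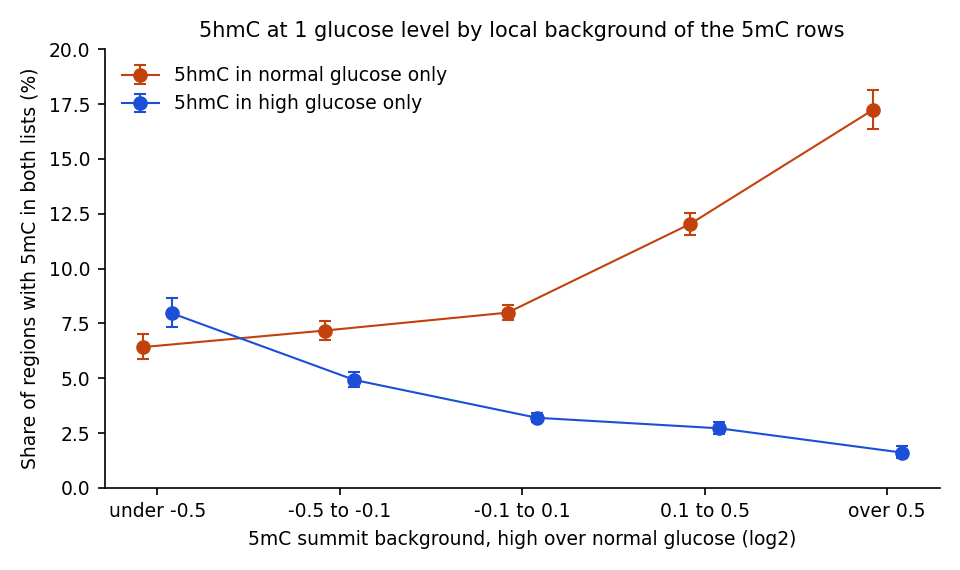
Percent of regions with 5mC in both lists that were normal-only or high-only (vertical axis, Wilson 95% intervals), in 5 classes of the log2 ratio of the local 5mC background, high over normal glucose (horizontal axis). Normal-only regions run from 6.42% to 17.2% and high-only regions from 7.96% to 1.61%.

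The backgrounds of both marks were also tied at a given glucose level. Over the 6553 normal-only regions the background of the normal-glucose 5hmC peak followed that of the high-glucose 5mC peak with a rank correlation (Spearman) of 0.46 and a linear one (Pearson) of 0.42, and that of the normal-glucose 5mC peak with 0.71 and 0.65. These points share position and, at 1 glucose level, possibly a control library. The sources used here do not give the control. The part of the background in whether a high-glucose 5hmC peak was listed was not tested, since the lists give no background where they hold no peak.

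Among the 10 normal-only regions with the strongest 5hmC, the strongest was chr9:132224440-132225116, with 37 fragments and a 10.3-fold enrichment at the 5hmC summit, and a -log10 p of 29.6. Its 5mC fold was 10.6 for high and 12.8 for normal glucose, from 25 and 23 fragments. A high-glucose 5hmC peak lay 790 bp away, so 5hmC was listed close by in both lists. The 5mC background there was 1.98 times the lowest in high and 1.42 times in normal glucose.

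Next in strength was chr17:20914049-20914838, with 36 fragments at the 5hmC summit, an 8.59-fold enrichment and a high-glucose 5hmC peak 2683 bp away. Its 5mC summits held 12 fragments in each list, with folds of 5.96 in high and 7.34 in normal glucose. With equal fragment numbers, the folds differed by the expected background that enters them. The third, chr10:105423418-105424437, had 35 fragments and an 8.60-fold enrichment, and lay 106 bp from a high-glucose 5hmC peak. It was one of the regions where the 5mC fold was higher in high glucose, at 5.48 against 4.05 in normal glucose.

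The fourth, chr5:38808904-38809508, had 36 fragments of 5hmC. Its 5mC summits held 14 fragments in high against 7 in normal glucose. The background was 2.23 times the lowest in high and 1.13 times in normal glucose, and the folds were 5.68 and 4.73. The fifth, chr19:49385043-49385578, had 31 fragments of 5hmC and was the farthest of the 10 from a high-glucose 5hmC peak, at 5915 bp. Its 5mC summits held 13 fragments in high and 14 in normal glucose, but the background was 2.72 times the lowest in high glucose and at the lowest in normal glucose, so that the folds were 4.65 and 9.29. Nearly equal 5mC fragments thus stood beside clearly unequal folds. Equal fragment numbers in the 2 lists do not mean equal 5mC. Over all regions with 5mC in both lists, summed summit fragments were 1.17 times as many in high as in normal glucose.

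The remaining 5 of the 10 were chr19:41188402-41189016, chr1:175856693-175857134, chr1:1214287-1215864, chr19:17328592-17329607 and chr9:134569817-134570802. Over all 10, the 5hmC summits held 30 to 37 fragments, the 5mC folds ranged from 4.47 to 13.0 in high and from 4.05 to 20.1 in normal glucose, and the nearest high-glucose 5hmC peak lay 106 to 5915 bp away. The 5mC background over the lowest was higher in high glucose at 8 of the 10 and lower at 2, and the authors' 5mC fold was higher in the high-glucose list at 3. These counts take any difference, and chr1:1214287-1215864 (1.02 in high, 1 in normal glucose) and chr19:17328592-17329607 (1.98 and 1.99) were nearly equal. Over all regions with 5mC in both lists, a background at least 1.25 times higher was found at 16.5% and lower at 15.2%. Over all normal-only regions these shares were 27.2% and 10.4%. They use a stricter cut than the counts over the 10, so the counts and shares are not alike. For the fold itself, rather than its rank, no share over all regions was worked out. The 10 were picked by 5hmC strength and are too few for a share.

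The 5 normal-only regions with the strongest 5mC had 5hmC peaks of very different strength, with a -log10 p between 2.75 and 14.9. At chr11:68152103-68154783 the 5mC summit held 191 fragments in high and 154 in normal glucose, with folds of 83.4 and 83.7, and the 5hmC peak had 24 fragments and a -log10 p of 12.4. At chr20:49625319-49627385 the folds of 5mC were 57.1 in high and 63.2 in normal glucose, and the stronger of its normal-glucose 5hmC peaks had 15 fragments, 1007 bp from the high-glucose 5mC summit. Among the 5 strongest, the 5hmC summit of this region and of chr19:58878262-58881215, at 1592 bp and with a 5hmC -log10 p of 14.9, lay farthest from the 5mC summit. At chr7:2471674-2473799 the 5mC folds were 54.5 and 64.6 in high and normal glucose, while the 5hmC peak reached a -log10 p of 2.75. At chrX:40481859-40483419 the 5mC summits held 116 and 117 fragments in high and normal glucose, at the lowest background of both lists.

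A few normal-only regions stood far from any high-glucose 5hmC. The farthest was chr9:44992918-44993529, 1487755 bp away, where the 5hmC fold was 1.87. Its background was 5.69 times the lowest in the high-glucose 5mC list, 4.54 times in the normal-glucose 5mC list and 5.70 times in the normal-glucose 5hmC list. The next, chr1:202421368-202421876, lay 95595 bp away, with 20 fragments of 5hmC, 32 fragments of 5mC in high and 36 in normal glucose, all at the lowest background of their lists. At chr2:130942926-130943775, 72858 bp away, all 3 peaks also lay at the lowest background of their lists, with 15 fragments of 5hmC, 9 fragments of 5mC in high and 14 in normal glucose. The others were chr6:65391193-65392361, at 71739 bp, and chrX:21775969-21776588, at 70558 bp.

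Normal-only regions were found on all 23 chromosomes analysed and outnumbered high-only regions on each, by ratios between 1.96 on chromosome 4 and 3.33 on chromosome 21. Their share of regions with 5mC in both lists was highest on chromosome 21, at 12.5% (130 of 1039 regions, 10.6 to 14.7%), chromosome 22, at 12.1% (10.7 to 13.6%), and chromosome 16, at 11.7% (10.8 to 12.8%). It was lowest on chromosome 4, at 7.35% (6.42 to 8.40%), and on the X chromosome, at 7.84% (6.39 to 9.59%). The intervals of chromosomes 21 and 22 lay above that of chromosome 4, as did those of chromosomes 7, 9, 10, 11, 14, 16, 17 and 19. The other intervals overlapped that of chromosome 4. The share of high-only regions varied less, between 3.06 and 4.28%.

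**Figure D5:**
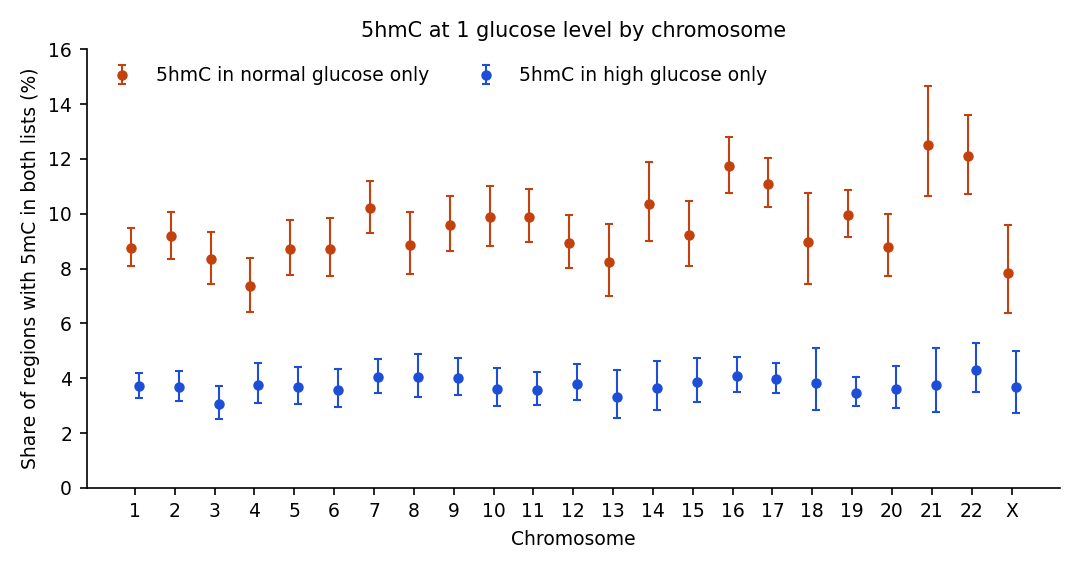
Percent of regions with 5mC in both lists that were normal-only or high-only (vertical axis, Wilson 95% intervals) on each chromosome (horizontal axis). Normal-only regions lie above high-only regions on 23 of 23 chromosomes, from 7.35% on chromosome 4 to 12.5% on chromosome 21.

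Normal-only regions were denser where regions with 5mC were dense. Of the 1 Mb windows, 1023 held at least 20 regions with 5mC in both lists, and in these the median share of normal-only regions was 9.38% (quartiles 5.88 and 12.9%). Normal-only exceeded high-only regions in 807 of these windows, fell short in 95 and were equal in 121. Over 5 classes of windows from few to many such regions, the share was 8.05, 8.53, 9.42, 10.1 and 11.6%, and the ratio to high-only regions lay between 2.26 and 2.77. The share of regions with 5hmC at both levels rose further over the same classes, from 23.8 to 46.3%. The rise was therefore not particular to normal-only regions. Across the 1023 windows the share and the number of regions had a rank correlation (Spearman) of 0.25 and a linear one (Pearson) of 0.24, a description only, since neighbouring windows share DNA context and libraries.

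The windows with most normal-only regions were chr16:89000001-90000000, with 36 of 207 regions, and chr17:78000001-79000000, with 36 of 201. Windows at chr7:2000001-3000000, chr17:1000001-2000000 and chr17:79000001-80000000 held 32 each, of 209, 202 and 215 regions. All 5 had shares between 14.9 and 17.9%. The highest shares were at chr16:16000001-17000000, with 12 of 40 regions (30%, 18.1 to 45.4%), chr16:56000001-57000000, with 12 of 47, chr22:51000001-52000000, with 5 of 20, chr17:43000001-44000000, with 17 of 70, and chr7:22000001-23000000, with 5 of 21. The intervals of these small windows are wide.

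The share of normal-only regions was also higher at the high-coordinate end of chromosomes, the end that was measured. In the 5 Mb before the last listed peak of each chromosome, 1140 of 9518 regions with 5mC in both lists were normal-only, or 12.0% (11.3 to 12.6%), against 9.15% (8.92 to 9.39%) elsewhere. High-only regions made up 4.24% there and 3.66% elsewhere. Of all normal-only regions, 17.4% lay in this zone, near the 17.9% of regions with 5hmC at both levels and above the 10.5% of regions without 5hmC. Another normal-only region lay within 10 kb for 1734 of them, or 26.5%. The longest run of such neighbours held 7, at chr2:240204855-240239498. Among the fewer high-only regions, 9.96% had another within 10 kb, and the longest run held 4. Both values depend on the number of regions in the class, and clustering was not tested.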

How the data were processed

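hMeDIP-seq and MeDIP-seq libraries of A2058 cells were grouped by sample title. Peak names inside the lists say Ctrl where the title says high glucose and Low where it says normal glucose; every direction given rests on the titles. Per the submitters' processing notes, the build was hg19 and the tools included bedtools 2.17.0, SAMtools 0.1.18, Bowtie 1.0.0 and CASAVA 1.8.2, with no roles stated. Which caller and control made the peaks, and what was done with duplicates, is not given in the sources used here. For each antibody-enriched library 1 narrow-peak list was deposited, with q-values up to 0.05. For every peak the authors deposited a summit, a fold enrichment, which is a ratio, and p- and q-values on the -log10 scale. How peaks were called decides what is absent from a list: a region with enrichment just under the threshold counts here as without the mark.

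Coordinates are 1-based on hg19. The 80 and 82 5hmC peaks and the 14 and 15 5mC peaks, in high and normal glucose, that lay outside chromosomes 1 to 22 and X were left out. Union regions were built in NumPy 2.4.6 and pandas 2.3.3 under Python 3.11.15. A rerun in bedtools 2.31.1 counted the same 319166 regions and 6553 members. Where a region held several peaks of a list, the one with the highest -log10 p was used. Fragments and background at summits were solved from the fold and p columns, with a misfit in -log10 p of at most 0.0005; this form of the score is inferred from the values. The search and the class counts were tested on simulated data. The simulated peaks were made with the same form of the score, so they cannot show that the caller used it. The simulated regions lay far apart, so joins between near regions were not tried. Wilson intervals came from SciPy 1.17.1. Plots were drawn in Matplotlib 3.10.9.

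The regions, comparisons and named members were chosen with earlier results of these data known. Named are the 10 members with the highest 5hmC -log10 p, the 5 with the highest value of the smaller 5mC -log10 p, the 5 farthest from high-glucose 5hmC, and the 5 windows each with most members and the highest share. The alternatives tried were stricter q and p thresholds, other overlap rules, a wider zone of absence, a trimmed list, autosomes alone and regions of single peaks. The 2 input libraries were not analysed here. No genome or annotation of hg19 was used here, so base composition, genes and sequences are not described.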

Additional observations from a re-analysis of the deposited data

How the results depend on the processing

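The 8 other settings of the rule left 4600 to 6468 normal-only regions, except that a -log10 p of at least 10 in the 3 lists that must hold a peak, with the high-glucose 5hmC list whole, left 464 (main value 6553). That setting favours high-only regions by its construction, since the high-glucose 5hmC list is not cut: the share became 1.24%, the ratio to high-only regions 0.0664, which is the reverse of 2.55, the median 5mC -log10 p 26.7 and 23.2 in high and normal glucose, the ratio of regions with higher to lower background 4 against 2.62, and the percent with a higher 5mC rank in high glucose 48.5. A -log10 q of at least 2 in all lists gave a share of 9.31% and a ratio of 2.33, and an overlap of at least 100 bp a share of 9.17%. Joining peaks within 500 bp gave 9.93%, a ratio of 2.38, median 5mC -log10 p of 14.4 and 13.4 in high and normal glucose, and a background ratio of 2.31. Requiring no peak of the absent 5hmC list within 1000 bp gave 6.70% and 2.67. Trimming the normal-glucose 5hmC list gave 7.70%, 1.54 and a background ratio of 2.86. Regions with 1 peak per list gave 9.95% and medians of 14.6 and 13.9. Chosen after the data were seen, the limit to regions with a background within 0.1 on the log2 scale gave 7.99%, a normal-glucose median of 13.2 and 50.9% with a higher 5mC rank in high glucose, against 47.3%; ranking by fold gave 45.9% and ranking by fragments 50.6%. The percent above and below 50 therefore depends on the measure, and the cause was not tested. Of all recomputed values, 3 were reversed, 25 moved further and 35 moved by less than their counting interval or, for the count, less than 1.5 times. The comparisons of base composition and gene annotation were not run. No paired analysis was possible because there was 1 library per mark and glucose level; no library could be left out for the same reason.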
